A study of Mus musculus with 31 samples.

Results

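The loss of MuRF1 was examined in the gastrocnemius muscle of male mice kept on chow. The comparison took 4 male mice with the genotype MuRF1 -/- and 4 wild-type males, 8 of the 31 libraries of the series, and all 39017 gene identifiers of their count tables. A library was placed in the group whose title carries the animal number found on its count table, and for these 8 libraries the library's own title gave the same group. The whole series crossed genotype with sex and with diet, either chow or, in a subset of mice from 8 weeks of age, a diet with 45% fat from lard. Muscle was collected at 30 weeks of age in all groups. Both groups compared here ate chow throughout, so they differed by genotype alone as far as the labels say. The targeted part of the gene, the background strain and the time of day at collection are not stated in the labels. Each library came from a different animal number.

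MuRF1, the protein of Trim63, is a RING-type ubiquitin ligase of striated muscle that sits at the M-band of the sarcomere and marks contractile proteins such as myosin heavy chain for breakdown by the proteasome. Its transcript rises when muscle wastes, for instance after denervation, disuse or glucocorticoid treatment, under the control of FoxO factors and the glucocorticoid receptor. The gastrocnemius is a mixed calf muscle made mostly of fast fibres, with connective tissue, vessels and resident immune cells between the fibres.

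Total counts ran from 11393792 to 13924802 per library, and mitochondrial genes held 7.37% to 13.8% of them. Muscle transcripts such as Ckm, Acta1 and Myh4 were abundant in all 8 libraries, whereas the keratin genes Krt5 and Krt14 had no count in any of them. Wild type 4 and knockout 4 lay nearest the other genotype on the main axis of variation, but other animals also stood apart within their groups. Knockout 2 lay beyond knockouts 1 and 3 on the side away from the wild types. Between replicates, the chi-square per gene was 30.998 and 28.981 for wild type 2 against wild types 1 and 3. It was 39.965 and 41.509 for wild type 4 against the same animals, and 4.802 between wild types 1 and 3. On the main axis of variation, which held 50.8% of the variance of log2 CPM, wild type 1 to 4 lay at -27.9, -23.2, -33.1 and -0.36 and knockout 1 to 4 at 20.7, 41.6, 24.7 and -2.43. CPM is the count of a gene normalised to the total of its library, here scaled by the trimmed mean of M-values (TMM). Transcripts of the daily clock separated the libraries in the same way. Dbp, a clock-driven transcription factor, lay at 11.1, 14.3, 10.3 and 72.5 CPM in wild type 1 to 4 and at 82.4, 85.6, 69.3 and 49.1 CPM in knockout 1 to 4. Its low values were thus those of wild type 1 to 3, and wild type 4 lay among the knockouts. Counts of most gene lists and of the regions are therefore also given without wild type 4 and knockout 4, called the pair below. The part of clock phase in them was not tested. The pair was picked from these same values, for its place near the other genotype, so its omission favours a wider group difference and more calls. Counts without the pair are descriptions and no independent support. In that setting 9.78% of all tested genes were called higher and 14.2% lower, beside which the list counts should be read.

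Trim63 (ENSMUSG00000028834, chr4:134315120-134329629, mm10) checks the genotype labels. Its transcript lay at 188, 228, 101 and 252 CPM in wild type 1 to 4 and at 1.05, 7.32, 1.98 and 0.52 CPM in knockout 1 to 4. All 8 libraries fitted their labels and the groups did not overlap, but wild type 3 held less than the other wild types and knockout 2 more than the other knockouts. The log2 fold change was -6.21 ± 0.70 (standard error), with an adjusted p of 0.0233 in edgeR's quasi-likelihood test after Benjamini-Hochberg adjustment. The call was lost without wild type 1 (adjusted p = 0.0589), wild type 2 (0.0605), knockout 1 (0.0663) or knockout 3 (0.098), with log2 fold changes between -5.82 and -7.36 over all omissions of a library. In the other 3 pairs of groups, scaled over 30 libraries, Trim63 ran from 121 to 264 CPM in wild types and from 0.487 to 1.83 CPM in knockouts.

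Of 12646 genes that passed the count filter, edgeR called 279 (2.21%) at an adjusted p under 0.05, with 114 (0.901%) up and 165 (1.3%) down in the knockouts. At least 2-fold changes were found for 17 of the higher and 76 of the lower genes. The groups did not overlap in CPM for 1376 genes (10.9%), among them 265 of the called ones. Without wild type 4 and knockout 4 the same test called 1242 genes higher (9.78%) and 1810 lower (14.2%), and 278 of the 279 genes were among them. With the spread estimated from all 30 grouped libraries, 229 genes were higher (1.63%) and 745 lower (5.31%). The number of calls was 1920 without wild type 4, 1493 without knockout 4, and between 21 and 56 when any other single library was left out. A core of 19 genes was called whichever library was omitted.

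**Figure D1:**
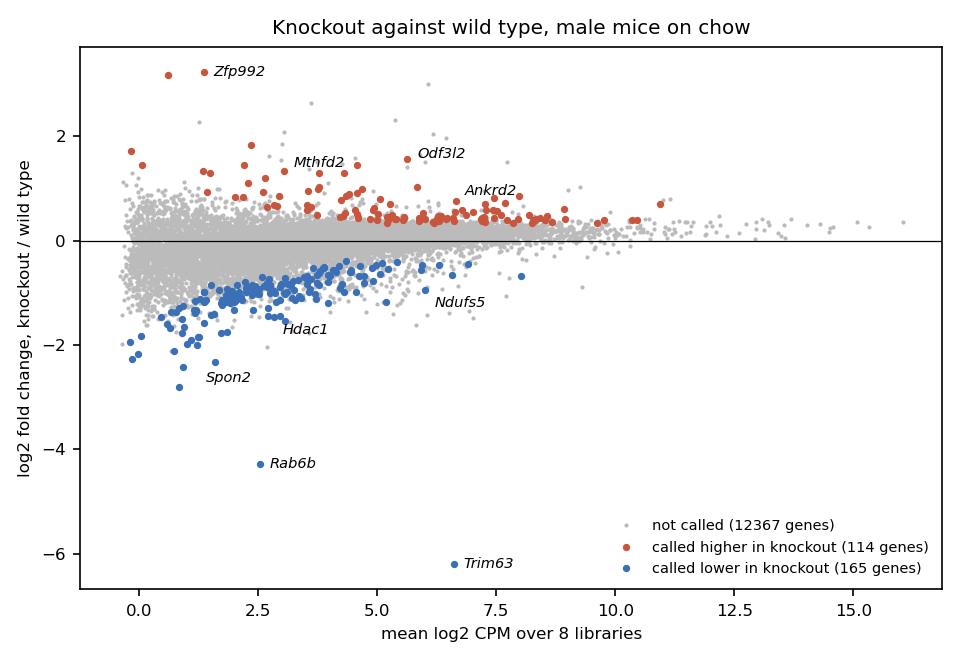
Log2 fold change of knockout over wild type (vertical axis) against the mean log2 CPM of the 8 libraries (horizontal axis), 1 point per gene, coloured by the edgeR call at an adjusted p under 0.05. Genes called higher (114) and lower (165) lie on both sides of 0, and Trim63 at -6.21 and Rab6b at -4.28 lie below all others.

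Several of the largest changes away from chromosome 4 concerned genes of muscle growth, transport and signalling. Gdf11, a secreted ligand of the TGF-beta family and relative of myostatin, lay at 14.6, 14.0, 21.7 and 18.6 CPM in wild type 1 to 4 and at 33.8, 39.8, 28.0 and 35.9 CPM in knockout 1 to 4. Every knockout exceeded every wild type, and Gdf11 rose by 1.00 ± 0.15 on the log2 scale (edgeR, adjusted p = 0.00655). Myostatin itself, Mstn, was at 55.3 ± 9.15 CPM (SD, n = 4) in wild types and 75.1 ± 5.04 CPM (SD, n = 4) in knockouts and just missed the threshold (edgeR, adjusted p = 0.0503). Slc15a5, a member of the peptide transporter family, rose from 3.57, 1.42, 2.17 and 1.71 CPM to 6.09, 7.51, 9.41 and 8.61 CPM (log2 fold change 1.84 ± 0.25). Atcay, which encodes the kinesin adaptor caytaxin, rose from 5.93, 9.37, 5.93 and 10.3 CPM to 18.6, 20.7, 21.9 and 17.1 CPM (1.31 ± 0.17). Both of these were called in all 8 omissions of a library, and neither overlapped between groups. Shc2, an adaptor of receptor tyrosine kinases, and Tmem37, an accessory protein of voltage-gated calcium channels, were also in that core, with log2 fold changes of 0.92 ± 0.10 and 0.90 ± 0.12. Odf3l2 rose by 1.56 ± 0.23, the arrestin-domain gene Arrdc3 by 1.03 ± 0.17, and Mid1ip1, a regulator of fatty acid synthesis, by 1.31 ± 0.23. The mitochondrial transfer RNA gene mt-Tl1 was also among the 12 largest increases, at 1.20 ± 0.25. It ran from 2.26 to 5.57 CPM in wild types and from 6.94 to 11.6 CPM in knockouts. The strand setting is not stated, so reads of adjoining mitochondrial transcripts cannot be told apart from its own. Of 13 listed genes of mitochondrial DNA 0 were called.

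Among decreases outside chromosome 4, Rab6b, a small GTPase of Golgi transport on chromosome 9, was the steepest after Trim63. It lay at 13.6, 13.8, 2.39 and 11.3 CPM in wild type 1 to 4 and at 1.05, 0.578, 0.165 and 0.371 CPM in knockout 1 to 4. Wild type 3, the animal with the least Trim63 among wild types, also held the least Rab6b. The log2 fold change was -4.28 ± 0.71 (edgeR, adjusted p = 0.0342), and -4.61 without wild type 3, while the call was lost without wild type 1, wild type 2, knockout 1, knockout 2 or knockout 3, with adjusted p between 0.0742 and 0.12. Among female wild types on chow, scaled over 30 libraries, Rab6b ran from 1.35 to 17.8 CPM, so low values were not limited to knockouts. Further large decreases were Spon2, a secreted matrix protein (-2.33 ± 0.49), Sertad4 (-1.99 ± 0.33), the arylsulfatase gene Arsi (-1.90 ± 0.37), Itgb2, the beta chain of leukocyte integrins (-1.85 ± 0.38), and Bcl6b, a transcriptional repressor of endothelium and immune cells (-1.54 ± 0.27). Slc28a2, a nucleoside transporter, fell from 19.7, 22.3, 19.9 and 16.4 CPM to 10.5, 10.6, 10.9 and 13.0 CPM. It was called in all 8 omissions, with a log2 fold change of -0.80 ± 0.12.

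**Figure D2:**
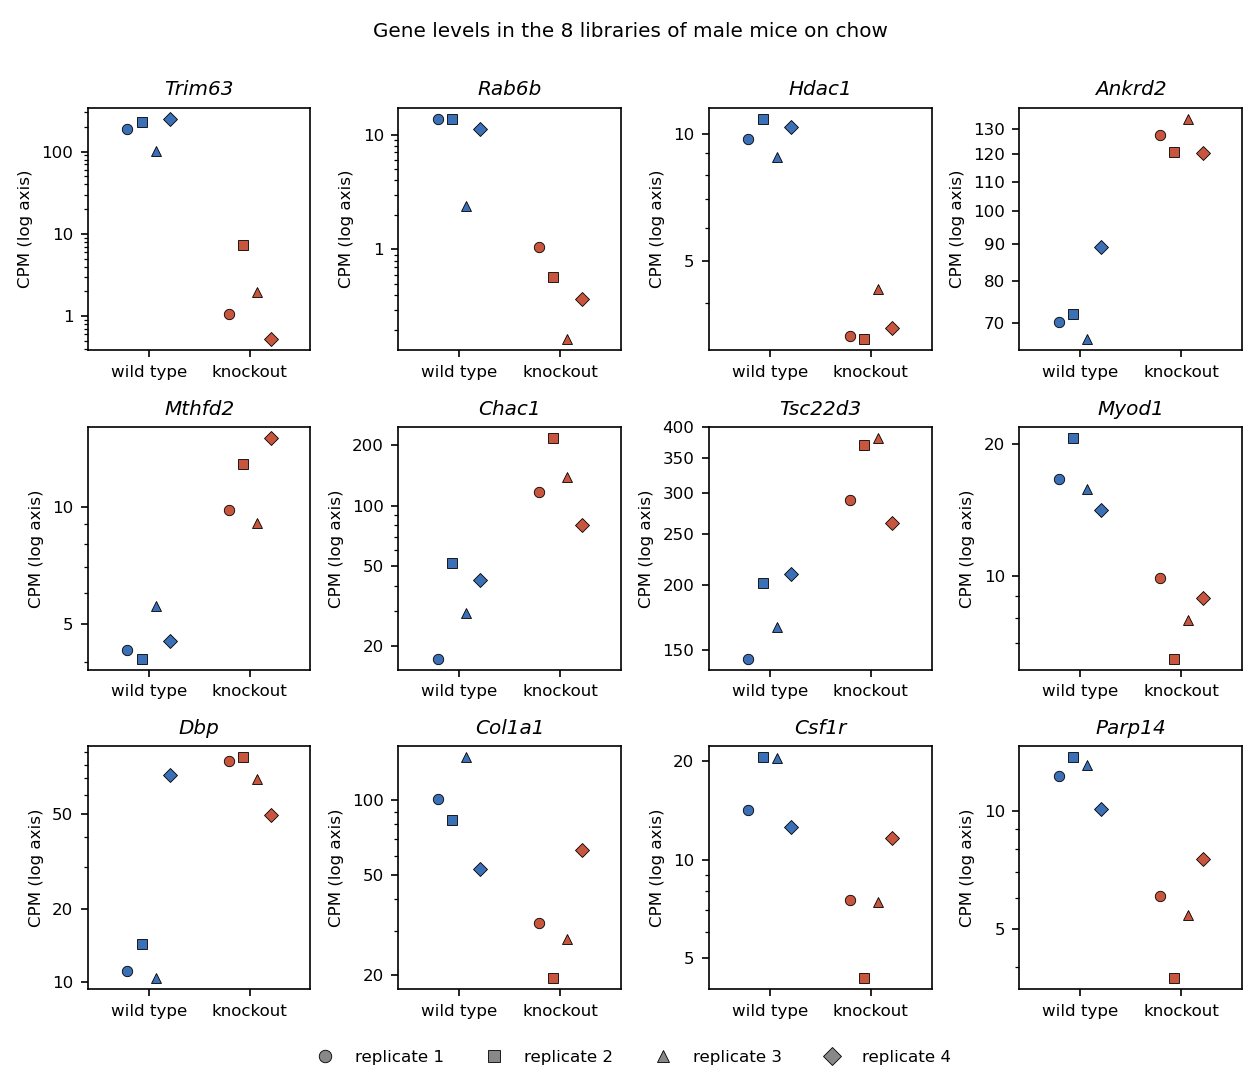
CPM on log axes for 12 genes in the 8 libraries, 1 symbol shape per replicate number, wild types in blue and knockouts in red. Trim63, Hdac1, Ankrd2, Mthfd2, Tsc22d3 and Myod1 do not overlap between groups, whereas for Dbp and Col1a1 wild type 4 and knockout 4 (diamonds) lie side by side.

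Besides Trim63, 39 of the called genes lie within 25 Mb of it on chromosome 4. In the 2 Mb on either side of it edgeR called 8 of 72 genes (11.1%), all lower. Between 2 and 10 Mb it was 11 of 152 (7.24%), and between 10 and 25 Mb 20 of 215 (9.3%), with increases and decreases among them. On the rest of chromosome 4 it was 4 of 347 (1.15%), and on all other chromosomes 235 of 11859 (1.98%). Without the pair the contrast was smaller: of the same genes 36.1% were called within 2 Mb, 26.3% between 2 and 10 Mb, 25.1% between 10 and 25 Mb, 21.3% on the rest of chromosome 4 and 23.8% on other chromosomes. Beyond 2 Mb these shares without the pair lay close to that of other chromosomes. With the spread of 30 libraries 14 of the 72 genes within 2 Mb were called, and 18 of 152 between 2 and 10 Mb. There it was 35 of 215 between 10 and 25 Mb, 16 of 347 beyond 25 Mb and 839 of 11859 on other chromosomes. Of the 19 genes called in all 8 omissions, 9 lay within 25 Mb of Trim63. In this design an effect of sequence linked to the targeted allele and an effect of MuRF1 loss cannot be told apart.

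The linked gene Hdac1, a histone deacetylase that holds back muscle genes in myoblasts, lay at 9.72, 10.9, 8.82 and 10.4 CPM in wild types and at 3.33, 3.27, 4.29 and 3.49 CPM in knockouts. The groups were far apart and the spread within each was small, with a log2 fold change of -1.46 ± 0.15 (edgeR, adjusted p = 0.000669). Hmgn2, a nucleosome-binding protein next to Trim63, fell from 16.3, 18.0, 14.1 and 21.2 CPM to 9.99, 9.05, 9.33 and 10.0 CPM (-0.86 ± 0.13). Sfn, the 14-3-3 sigma protein, fell by 2.41 ± 0.37 and E2f2, a transcription factor of the cell cycle, by 1.77 ± 0.32. In the same region Mad2l2, a subunit of a DNA repair polymerase, rose by 1.00 ± 0.13, and Fbxo6, which recognises glycoproteins for ubiquitination, by 0.70 ± 0.10. The zinc finger gene Zfp992 rose from 0.143, 0.259, 1.23 and 0.297 CPM to 3.43, 4.43, 5.12 and 5.35 CPM. Zinc finger genes of this region are similar to each other, so its reads are uncertain. Wild type 3 held the highest Zfp992 of its group, and the same was true of Fam131c, which lay at 0, 0.0646, 1.01 and 0.0743 CPM in wild type 1 to 4 and between 2.08 and 2.86 CPM in knockouts. For Hyi, farther along, it was wild type 4 that lay highest among wild types, at 3.05 CPM against 0.94 to 1.16 CPM in the others and 3.63 to 4.28 CPM in knockouts.

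The smallest p of all genes was that of Ndufs5, a subunit of respiratory complex I on chromosome 4, at 84.1, 86.8, 82.2 and 82.8 CPM in wild types and 45.3, 45.6, 42.7 and 41.9 CPM in knockouts (log2 fold change -0.94 ± 0.08, edgeR, adjusted p = 5.34e-05). Its value is uncertain because the processed pseudogene BC002163 on chromosome 16 shares 317 of 319 aligned bases (99.4%) with the Ndufs5 transcript. BC002163 lay at 3.22, 2.26, 2.17 and 52.1 CPM in wild type 1 to 4 and at 126, 122, 115 and 114 CPM in knockout 1 to 4. Ndufs5 was thus lower in every knockout and its copy higher, with wild type 4 between the groups for the copy alone.

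**Figure D3:**
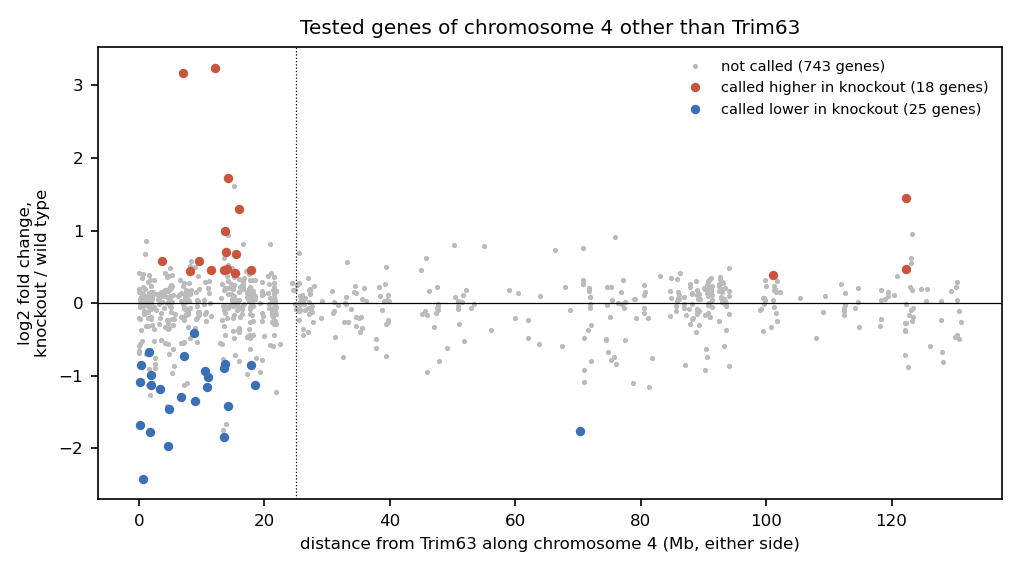
Log2 fold change of the tested genes of chromosome 4 other than Trim63 (vertical axis) against their distance from Trim63 in Mb on either side (horizontal axis), with edgeR calls in colour and a dotted line at 25 Mb. Of the 43 called genes 39 lie within 25 Mb. The called share was 11.1% of 72 tested genes within 2 Mb and 7.24% of 152 between 2 and 10 Mb. It was 9.3% of 215 between 10 and 25 Mb and 1.15% of 347 beyond 25 Mb.

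In the test of the 8 libraries, transcripts of the contractile apparatus were higher in knockouts where they were called. Of 36 tested genes that encode MuRF1 partners or sarcomere structure, 3 rose and 0 fell. The median log2 fold change of these genes was 0.22, against 0.01 over all genes. Ankrd2, a stretch-responsive ankyrin repeat protein that binds titin, lay at 70.1, 71.9, 66.3 and 89.1 CPM in wild types and at 128, 121, 135 and 121 CPM in knockouts. It rose by 0.76 ± 0.10 (edgeR, adjusted p = 0.00246), was called in all 8 omissions and did not overlap between groups. With the spread of 30 libraries Ankrd2 was not called (edgeR, adjusted p = 0.0756). Lmod2, a leiomodin that elongates actin filaments, rose from 129, 93.6, 144 and 102 CPM to 195, 187, 222 and 163 CPM. Myoz2, a Z-disc protein of slow fibres that binds calcineurin, rose from 110, 97.1, 113 and 98.6 CPM to 189, 126, 165 and 133 CPM. The LIM protein gene Fhl3, within 25 Mb of Trim63, rose by 0.58 ± 0.12. Titin itself (Ttn, 0.05 ± 0.10) and nebulin (Neb, 0.09 ± 0.10) were not called. Without the pair 14 of the 36 rose and 1 fell, and with the spread of 30 libraries 3 of 37 rose and 1 fell.

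None of 17 fast-fibre contractile genes was called although all 17 had values above 0, with a median of 0.24. Myh4, the fast IIb myosin heavy chain, lay at 0.35 ± 0.13 and Mybpc2, the fast myosin-binding protein C, at 0.41 ± 0.13. The mean log2 CPM of the list was 12.96, 13.05, 12.97 and 13.25 in wild type 1 to 4 and 13.33, 13.47, 13.29 and 13.17 in knockout 1 to 4, so knockout 4 lay below wild type 4. Without this pair 12 of 17 rose. Slow-fibre contractile genes had a median of 0.34, with 14 of 16 values above 0 and 1 called higher. Without the pair 2 of the 16 rose, and with the spread of 30 libraries 0 did. Of 27 genes of calcium handling 2 rose and 0 fell. They were Cacna1s, the voltage sensor of the dihydropyridine receptor (0.39 ± 0.09), and Camk2b, a calcium-dependent kinase (0.42 ± 0.09), and without the pair 11 of the 27 rose. Of 42 nuclear genes of oxidative phosphorylation 1 rose, Cox8b, a muscle-type subunit of cytochrome oxidase, from 110, 136, 141 and 160 CPM to 217, 215, 220 and 173 CPM. The 42 values ran from -0.05 to 0.59, 40 of them above 0. Of 44 cytosolic ribosomal protein genes 0 were called and 43 had values above 0 (median 0.24). Their mean log2 CPM was 7.21, 7.43, 7.18 and 7.72 in wild type 1 to 4 and 7.70, 7.68, 7.57 and 7.52 in knockout 1 to 4, which again put wild type 4 with the knockouts. Without the pair 23 of the 42 respiratory genes and 39 of the 44 ribosomal genes rose. With the spread of 30 libraries 0 of the 42 respiratory genes were called, and of the 44 ribosomal genes 0 rose and 1 fell. In that setting 1 of 17 fast-fibre genes and 2 of 27 calcium handling genes rose.

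In the degradation machinery in which MuRF1 acts, 0 of 34 proteasome subunits were called with all 8 libraries, with values between -0.06 and 0.28 and 29 of them above 0. Without the pair 7 of the 34 rose. Of 33 muscle ubiquitin ligases, a list without Trim63, 1 rose, the linked gene Fbxo6, and without the pair 2 rose. The paralogues of MuRF1 stayed below the threshold. Trim55, or MuRF2, was at 44.3 ± 3.64 CPM (SD, n = 4) in wild types and 42.3 ± 3.82 CPM (SD, n = 4) in knockouts, and Trim54, or MuRF3, had a log2 fold change of 0.23 ± 0.11. Fbxo32, the ligase atrogin-1 that rises with MuRF1 in wasting muscle, lay at 423, 421, 408 and 585 CPM in wild types and at 439, 503, 544 and 644 CPM in knockouts. These groups overlapped (0.21 ± 0.13, edgeR, adjusted p = 0.343). Of 30 genes of muscle atrophy and FoxO signalling, Trim63 fell and no other was called. Without the pair 5 rose and 4 fell, in a setting that called 9.78% of all genes higher and 14.2% lower.

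Of 28 tested glucocorticoid-responsive genes 5 rose and 1 fell, with a median of 0.55 and 9 values below 0. Leaving out a single library gave between 0 and 9 calls in this list. Tsc22d3, also known as GILZ and a direct target of the glucocorticoid receptor, lay at 144, 201, 166 and 210 CPM in wild types and at 291, 370, 382 and 262 CPM in knockouts. All knockouts exceeded all wild types, by 0.85 ± 0.14 on the log2 scale (edgeR, adjusted p = 0.0196). Sgk1, a kinase that regulates ion transport, rose from 144, 175, 128 and 175 CPM to 194, 270, 261 and 306 CPM. Klf9 rose by 0.44 ± 0.08, Klf15, a regulator of amino acid breakdown in muscle, by 0.80 ± 0.18, and the metallothionein Mt1 by 0.86 ± 0.20, although its groups overlapped. With the spread of 30 libraries 12 of the 28 rose and 0 fell, and omitting wild type 4 and knockout 4 gave 8 and 3. Angptl4, an inhibitor of lipoprotein lipase, fell by 0.82 ± 0.20. Ddit4, which restrains mTORC1, had the widest range, from 3.83 to 31.4 CPM in wild types and from 28.0 to 108 CPM in knockouts, and at 2.31 ± 0.78 it was not called (edgeR, adjusted p = 0.147). The receptor's co-chaperone Fkbp5, at 0.42 ± 0.26, was not called either. Over the list, mean log2 CPM was 4.67, 5.12, 4.51 and 5.03 in wild type 1 to 4 and 5.13, 5.52, 5.77 and 5.42 in knockout 1 to 4. The lowest knockout thus lay beside the highest wild type. Several list members, such as Per1 and Klf15, also follow the daily clock, whose part in these calls was not tested.

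The glucocorticoid response element is shown for Sgk1 and Mt1, the called members whose promoter window held its core. The window ran from 250 bases before to 50 bases after a RefSeq start site (GRCm38.p6), and ACANNNTGT was searched on both strands, where it reads the same. It was found in 3 of 25 list genes with a window (12.0%), in 4.97% of 9490 tested genes and in 6.85% of all 32851 windows. Capitals mark the match, which is a description of the letters and not of binding. Another Sgk1 window, of a different start site, also held the core, at chr10:21978520-21978578, and is not shown. The Sgk1 stretch shown is chr10:21993679-21993737 and that of Mt1 is chr8:94178972-94179030, both on the plus strand.
Sgk1: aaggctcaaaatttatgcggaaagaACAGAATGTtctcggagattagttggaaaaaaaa
Mt1: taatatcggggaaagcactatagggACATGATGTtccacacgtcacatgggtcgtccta

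Of 33 tested targets of ATF4, the factor that responds to amino acid shortage, 1 rose, Mthfd2, a mitochondrial enzyme of the folate cycle, and without the pair 8 of 34 rose and 2 fell. Mthfd2 lay at 4.29, 4.07, 5.57 and 4.53 CPM in wild types and at 9.80, 12.9, 9.08 and 15.0 CPM in knockouts. The groups were separate, the log2 fold change was 1.34 ± 0.18 (edgeR, adjusted p = 0.00295), and the call held in all 8 omissions. Chac1, a glutathione-degrading enzyme, lay at 17.4, 51.8, 29.4 and 42.8 CPM in wild types and at 116, 217, 140 and 80.0 CPM in knockouts. Although no knockout was as low as a wild type, its spread kept it below the threshold (1.96 ± 0.44, edgeR, adjusted p = 0.0697). Trib3 was at 0.94 ± 0.28, whereas Asns, asparagine synthetase, was at -1.23 ± 0.41, so the values of this list did not share a direction. Atf4 itself was at 0.07 ± 0.11.

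Clock genes had large values with few calls. Of 25 clock and clock output genes 1 was called, the repressor Cry1, which lay at 21.1, 18.7, 22.5 and 17.2 CPM in wild types and at 15.7, 12.5, 13.9 and 11.9 CPM in knockouts (-0.56 ± 0.12, edgeR, adjusted p = 0.0344). Arntl, or BMAL1, the activating partner of the clock, lay at 47.8, 39.4, 42.5 and 26.2 CPM in wild type 1 to 4 and at 8.85, 9.34, 8.01 and 33.5 CPM in knockout 1 to 4. Ciart, a repressor that follows it, lay at 1.5, 1.36, 1.74 and 9.43 CPM and at 13.6, 13.3, 15.2 and 8.17 CPM. In both genes wild type 1 to 3 and knockout 1 to 3 lay at opposite ends, and wild type 4 and knockout 4 lay between them. Per2 and Per3, repressors that oscillate with them, had log2 fold changes of 1.51 ± 0.45 and 0.81 ± 0.28. With the spread of 30 libraries 8 of the 25 rose and 3 fell, and omitting wild type 4 and knockout 4 gave 13 and 6. The other groups also differed in this respect. Scaled over 30 libraries, Dbp ran from 31.7 to 66.0 CPM in female wild types and from 89.3 to 104 CPM in female knockouts on chow, and from 47.2 to 110 CPM in male wild types and from 30.9 to 70.4 CPM in male knockouts on the high-fat diet.

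Genes of the connective tissue and of cells that lie between the fibres had values below 0 for most members, with few calls. For bulk tissue, fewer cells of a type and less RNA per cell cannot be told apart. Of 19 collagen genes 1 fell, Col14a1, a fibril-associated collagen, from 9.37, 8.79, 12.8 and 5.79 CPM to 2.57, 2.31, 2.56 and 5.79 CPM (-1.44 ± 0.31, edgeR, adjusted p = 0.0432). The collagen list had a median of -1.10 and 18 of its 19 values below 0. Col1a1, the main chain of fibrillar collagen, lay at 101, 83.0, 148 and 53.1 CPM in wild type 1 to 4 and at 32.2, 19.4, 27.7 and 63.3 CPM in knockout 1 to 4. Wild type 4 lay below knockout 4, while the other 3 wild types lay above the other 3 knockouts, and Col1a1 was not called (-1.43 ± 0.46, edgeR, adjusted p = 0.136). The mean log2 CPM of the collagen list showed the same order, at 5.01, 4.87, 5.29 and 4.43 in wild type 1 to 4 and 3.74, 3.26, 3.69 and 4.63 in knockout 1 to 4. Its summed level ran from 728 to 1399 CPM in wild types and from 307 to 816 CPM in knockouts. With the spread of 30 libraries 11 of the 19 collagens fell, and omitting wild type 4 and knockout 4 gave 18. Between 0 and 17 collagens were called when any 1 library was left out.

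Of 45 other matrix and matrix-remodelling genes 1 fell, the glycoprotein tenascin C (Tnc, -1.76 ± 0.36), with a median of -0.72. The gelatinase gene Mmp2 was at -1.18 ± 0.25 and missed the threshold (edgeR, adjusted p = 0.0531). Of 16 markers of fibro-adipogenic progenitors, the main matrix-producing mesenchymal cells of muscle, 3 fell, with a median of -0.81. Smoc2, a calcium-binding matrix protein, lay at 109, 120, 112 and 121 CPM in wild types and at 68.9, 55.9, 68.5 and 100 CPM in knockouts, and the surface protein Thy1 at 6.50, 6.33, 7.23 and 6.46 CPM and at 2.48, 2.79, 2.97 and 5.05 CPM. In both, knockout 4 was the highest knockout. Sfrp1, an inhibitor of Wnt signals, fell by 1.33 ± 0.32. The summed level of these markers ran from 1139 to 1477 CPM in wild types and from 500 to 1122 CPM in knockouts, with 0 markers absent. With the spread of 30 libraries 21 of 47 matrix genes and 14 of 16 progenitor markers fell, and omitting wild type 4 and knockout 4 gave 40 of 47 and 16 of 16. Omission of 1 library gave 0 to 30 calls among the matrix genes and 0 to 15 among the progenitor markers. Of 8 tendon markers 0 were called, with a median of -0.71, and without the pair 7 of the 8 fell.

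Macrophage markers followed the same libraries. Of 23 tested markers 2 fell, the lysosomal protease gene Ctss and the lysosomal membrane gene Laptm5, which lies within 25 Mb of Trim63 on chromosome 4. Ctss lay at 8.01, 6.72, 9.40 and 4.46 CPM in wild types and at 3.05, 1.83, 2.73 and 3.71 CPM in knockouts (-1.32 ± 0.25, edgeR, adjusted p = 0.0235). Csf1r, the receptor for the macrophage growth factor CSF1, lay at 14.2, 20.6, 20.4 and 12.6 CPM and at 7.52, 4.33, 7.43 and 11.7 CPM. Its groups did not overlap, but wild type 4 and knockout 4 were close, and it was not called (-1.11 ± 0.27, edgeR, adjusted p = 0.057). All 23 values were below 0, with a median of -1.05. Summed levels ran from 240 to 415 CPM in wild types and from 97.4 to 264 CPM in knockouts. With the spread of 30 libraries 19 of 26 fell, and without wild type 4 and knockout 4 all 23 did. Calls in this list ran from 0 to 20 when any 1 library was omitted. Of 20 markers of other leukocytes 3 could be tested and 0 were called, and the neutrophil marker Ly6g had no count in any library.

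Among vessel cells, 0 of 20 endothelial markers were called (median -0.45), and the mean log2 CPM was 4.80, 5.12, 4.98 and 4.51 in wild type 1 to 4 and 4.45, 4.10, 4.41 and 4.66 in knockout 1 to 4. Of 13 pericyte and smooth muscle markers 2 fell, Pdgfrb, the receptor by which vessels recruit pericytes (-0.81 ± 0.18), and Kcnj8, a potassium channel subunit of pericytes (-0.67 ± 0.14). Without wild type 4 and knockout 4, 15 of the 20 endothelial markers fell, and of the pericyte markers 9 fell and 1 rose. Of 12 adipocyte markers and 12 Schwann cell and myelin markers 0 were called, with medians of -0.47 and -0.22, and without the pair 4 of 12 adipocyte markers and 1 of 13 Schwann cell markers fell.

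**Figure D4:**
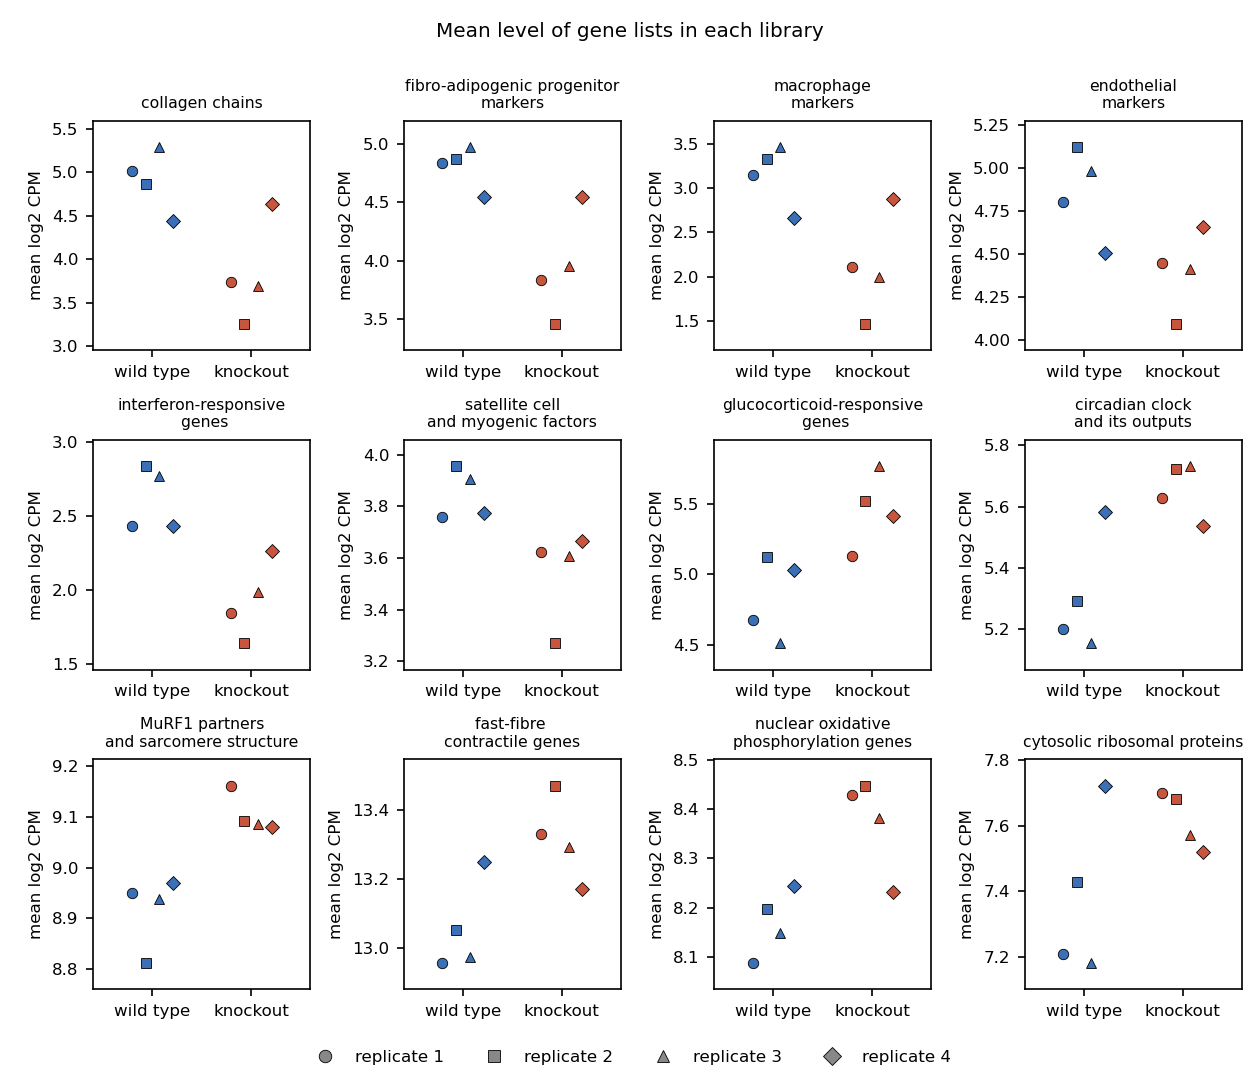
Mean log2 CPM of 12 gene lists in each library (vertical axes), 1 symbol shape per replicate number, wild types in blue and knockouts in red. In the collagen, macrophage, endothelial and ribosomal panels wild type 4 and knockout 4 (diamonds) lie between the other libraries or change places, whereas the interferon and sarcomere lists do not overlap between groups.

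Of 37 tested interferon-responsive genes 6 fell and 0 rose, with a median of -0.73 and 35 values below 0. Leaving out a single library gave between 0 and 18 calls in this list. Parp14, an ADP-ribosyltransferase, lay at 12.3, 13.7, 13.1 and 10.1 CPM in wild types and at 6.09, 3.75, 5.45 and 7.57 CPM in knockouts (-1.09 ± 0.18, edgeR, adjusted p = 0.013). Tap1, which carries peptides to MHC class I, fell from 4.08, 6.27, 5.42 and 4.61 CPM to 1.52, 1.64, 2.97 and 2.82 CPM. B2m, the constant chain of MHC class I, fell from 64.0, 77.9, 79.9 and 66.6 CPM to 46.2, 42.4, 44.4 and 62.2 CPM. In each of these the groups did not overlap. The guanylate-binding proteins Gbp2 (-0.91 ± 0.20) and Gbp7 (-1.08 ± 0.23) and the antiviral synthetase Oas2 (-1.17 ± 0.26) completed the 6. Outside the list Tmem173, or STING, a sensor upstream of interferon, fell by 1.57 ± 0.28, and Sp140, a nuclear body protein of immune cells, by 2.27 ± 0.40. Sp140 lay at only 0.19 to 0.33 CPM in knockouts. The list's mean log2 CPM was 2.44, 2.84, 2.77 and 2.43 in wild type 1 to 4 and 1.85, 1.64, 1.99 and 2.27 in knockout 1 to 4, without overlap. Macrophages also express these genes, and the lower macrophage markers in the same knockouts are a value beside this result whose part was not tested. With the spread of 30 libraries 18 of 40 fell, and omitting wild type 4 and knockout 4 gave 28 of 37.

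The core of the interferon-stimulated response element, GAAANNGAA, was searched on both strands of the same promoter windows, where it also forms part of the element bound by IRF factors. It was found in 16 of 29 tested list genes with a window (55.2%), against 8.56% of the 9490 tested genes and 8.56% of all windows. Of the called genes 4 had a window, and Gbp2, Gbp7 and B2m held the core while Tap1 did not. Another 13 list genes that were not called held it too. The stretches around it are shown for the 3 called genes to let the core be seen in place, in capitals and read in reverse in Gbp2 and Gbp7. They lie at chr3:142620580-142620638, chr3:142530259-142530317 and chr2:122147523-122147581, all on the plus strand.
Gbp2: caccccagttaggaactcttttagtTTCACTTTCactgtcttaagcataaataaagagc
Gbp7: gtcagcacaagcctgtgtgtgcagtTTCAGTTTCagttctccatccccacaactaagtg
B2m: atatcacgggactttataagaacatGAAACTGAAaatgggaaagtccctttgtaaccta

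Of 14 satellite cell and myogenic genes 2 fell, and without the pair 2 rose and 5 fell. Myod1, the myogenic transcription factor, lay at 16.7, 20.7, 15.8 and 14.1 CPM in wild types and at 9.90, 6.45, 7.93 and 8.91 CPM in knockouts. The highest knockout lay below the lowest wild type, the log2 fold change was -1.02 ± 0.15 (edgeR, adjusted p = 0.00571), and the call held in all 8 omissions. Heyl, a Notch effector within 25 Mb of Trim63 on chromosome 4, fell by 1.02 ± 0.20. No other member of the list, which also holds Notch receptors, was called. Outside the list the Notch ligand Dll1 fell by 1.75 ± 0.40. Pax7, the marker of quiescent satellite cells, was at 2.88 ± 0.836 CPM (SD, n = 4) in wild types and 2.31 ± 0.414 CPM (SD, n = 4) in knockouts and was not called. Of 24 genes of the nerve-muscle junction and of denervation 0 were called. Without the pair 1 rose and 5 fell, beside 9.78% of all genes higher and 14.2% lower. Of 8 developmental and cardiac-type muscle genes 0 were called, and without the pair 1 rose.

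The genotype difference was also set against that of males on the high-fat diet and of females on chow, in a fit of 30 libraries whose interaction terms test the difference between differences. Against male high fat 0 of 14024 genes passed (0%) by edgeR, 1456 had an unadjusted p under 0.05, and DESeq2 called 41. The smallest adjusted p, 0.0763, was shared by Slc28a2, Slc38a2 and Myod1. Myod1 had a log2 fold change of -1.03 in male chow and 0.61 in male high fat, and Slc28a2 of -0.81 and 0.17. Without wild type 4 and knockout 4, 269 genes passed. Hdac1 was at -1.06 ± 0.15 in male high fat (edgeR, adjusted p = 0.000147) and at -0.69 ± 0.13 in female chow (adjusted p = 0.0188), and Mthfd2, on chromosome 6, was at 1.18 in male high fat (edgeR, adjusted p = 0.00129) and at 0.18 in female chow (adjusted p = 1). For neither gene did the difference from females pass, with adjusted p of 0.0948 for Hdac1 and 0.0855 for Mthfd2 in edgeR.

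Against female chow 6 genes passed (0.0428%) by edgeR. Zfp36, or tristetraprolin, which destabilises cytokine transcripts, rose in males, from 10.6, 14.0, 8.90 and 17.9 CPM to 20.3, 40.1, 46.0 and 34.1 CPM, and was at -0.29 in females, a difference of 1.73 ± 0.30 (edgeR, adjusted p = 0.0194). Sp140, Sertad4, Tmem173 and Fam111a were lower in male knockouts and between 0.17 and 0.52 in females. Adgrb2, an adhesion receptor on chromosome 4, differed by 2.97 ± 0.56, with 1.39 in males and -1.58 in females. Scaled over 30 libraries, Adgrb2 in male chow ran from 0.207 to 0.24 CPM in wild types and from 0.406 to 0.87 CPM in knockouts. Sp140 ran from 0.925 to 1.45 CPM and from 0.203 to 0.347 CPM. The Adgrb2 wild types and the Sp140 knockouts thus lay near 3 counts, where counting error is large. Without wild type 4 and knockout 4, 765 genes passed, and without wild type 3 or knockout 2 it was 0. List medians in these groups were as follows. The collagen median was -0.84 in male high fat and -0.12 in female chow, and that of macrophage markers was -0.59 and -0.08. For interferon-responsive genes it was -0.24 and 0.03, for glucocorticoid-responsive genes 0.18 and 0.00, and for fast-fibre genes -0.12 and -0.17. No gene of these 5 lists passed either interaction test, so these medians are descriptions.

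**Figure D5:**
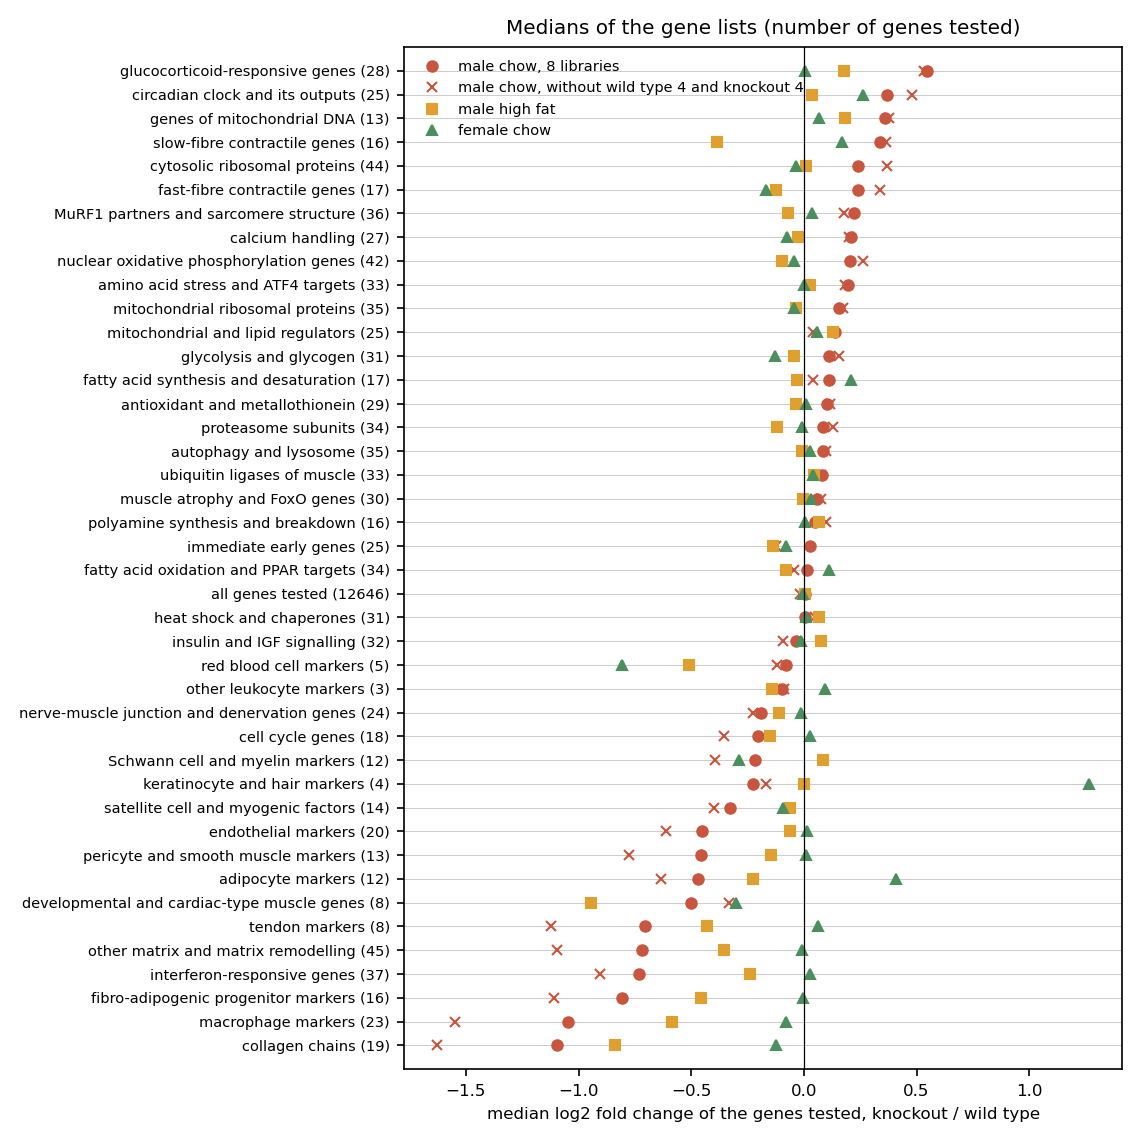
Median log2 fold change of knockout over wild type for each gene list (vertical axis, with the number of genes tested), in male chow with 8 libraries (red circles) and without wild type 4 and knockout 4 (red crosses), male high fat (yellow squares) and female chow (green triangles). In male chow the collagen list lies lowest at -1.10 and the glucocorticoid list highest at 0.55, and without wild type 4 and knockout 4 the collagen median is -1.63.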

How the data were processed

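PolyA RNA of powdered gastrocnemius was sequenced, 1 library per mouse. The authors deposited raw counts per gene, made with bcl2fastq and featureCounts on mm10, per the submitters' processing notes. Which aligner, gene annotation and strand setting were used is not given in the sources seen here, and reads of overlapping and antisense genes cannot be told apart. Of 39017 identifiers, 37693 were named through GENCODE M21. Of 31 libraries 30 could be placed in a group. For 4 of these, none of them in the main comparison, the library's own title gives another group, and 1 library was left out as unassigned. Replicates of a group differed beyond sampling noise (chi-square per gene 4.80 to 41.5 over 12 pairs), and 3 counts, the least taken as detected, equal 0.215 to 0.263 CPM before TMM scaling.

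Counts of the 8 libraries were tested with edgeR 4.0.16 (quasi-likelihood, robust, TMM, minimum count 10) in R 4.3.3, and p-values were adjusted by Benjamini-Hochberg over all 12646 tested genes with a threshold of 0.05. Interactions were fitted on 30 libraries and 14024 genes. Alternatives used DESeq2 1.42.0, limma 3.58.1, other scalings and filters, and omitted libraries. Only the edgeR fit of 4 against 4 libraries was run on simulated counts. Those counts were drawn independently for each gene with 1 common spread, so they lacked the main axis of variation seen here. CPM values are scaled over the 8 libraries unless stated. Promoter windows came from RefSeq (GRCm38.p6).

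The members and the 41 gene lists were chosen with earlier results of these data known. Named genes were Trim63, the 12 largest increases and decreases among calls whose mean log2 CPM was 1 or more and whose symbol is no clone name, up to 5 genes of smallest p in each list, up to 10 within 25 Mb of Trim63 and up to 10 of each interaction. Genes outside this rule, chosen after their values were seen, were Arntl, Asns, Atf4, B2m, BC002163, Ciart, Col1a1, Dbp, Ddit4, Fam131c, Fbxo32, Fkbp5, Neb, Pax7, Per1, Per2, Per3, Shc2, Tmem37, Trim54, Trim55 and Ttn, and Adgrb2 was tested in the 30-library fit alone. Ckm, Acta1, Myh4, Krt5, Krt14 and Ly6g were named as markers of cell types, and Krt5, Krt14 and Ly6g were not tested.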

Additional observations from a re-analysis of the deposited data

Results flagged for a closer look

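In the list of MuRF1 partners and sarcomere structure, knockout replicate 1 stood apart from the other 3 knockouts, with a mean log2 CPM of 9.16. In the list of satellite cell and myogenic factors, knockout replicate 2 stood apart at 3.27. These came from 82 list and group pairs, and chance sets a sample apart in about 1 in 20 groups. The genotype difference of males on chow differed from that of females on chow for 6 genes (edgeR interaction test). The log2 difference was -2.81 for Sp140, -2.18 for Sertad4, 2.97 for Adgrb2, 1.73 for Zfp36, -1.76 for Tmem173 and -1.91 for Fam111a. In male chow the Adgrb2 wild types and the Sp140 knockouts lay near 3 counts.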

How the results depend on the processing

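The count of 279 genes was 904 with DESeq2, 3114 with limma voom and sample quality weights, 911 without the low-count filter, 183 with a minimum count of 30, 974 with the spread of 30 libraries, 969 with that of the 26 libraries with agreeing labels, and 3052 without wild type 4 and knockout 4. Leaving out 1 library gave 21 to 1920. DESeq2 and the omission of wild type 4 or of knockout 4 each called all 279 genes again. Upper quartile scaling called 69 higher and 163 lower, against 114 and 165. No direction of the 77 called named genes reversed under the alternatives run. For the interaction with male high fat, 0 became 41 with DESeq2 and 269 without wild type 4 and knockout 4, and 0 to 69 with 1 library omitted. For that with female chow, 6 became 110 with DESeq2, 11 without the filter, 3 with only the 4 groups of the contrast and 765 without wild type 4 and knockout 4, and 0 to 373 with 1 library omitted. The cause was not tested. With the replicate block the genotype comparison called 56 genes, 48 of them among the 279, and each interaction called 1. Same-numbered animals deviated together in no pair (correlations -0.036, -0.065, -0.063 and -0.307). Correlations between single libraries cannot exclude a pairing by number, and none was assumed in the main fit. Genes near 3 counts per library are measured with large counting error.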

Other observations

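Among metabolic and signalling genes of males on chow, Hk2, the insulin-regulated hexokinase of muscle, lay at 278, 228, 294 and 304 CPM in wild types and at 359, 374, 409 and 340 CPM in knockouts, and rose by 0.42 ± 0.10 (edgeR, adjusted p = 0.0432). Hk1, its widely expressed relative, fell by 0.82 on the log2 scale, and no other of 31 glycolysis and glycogen genes was called. Of 32 genes of insulin and IGF signalling 2 fell, among them Irs1, the docking protein of the insulin receptor, from 20.7, 18.4, 21.1 and 20.6 CPM to 14.8, 13.9, 11.5 and 14.8 CPM (log2 fold change -0.56 ± 0.11). Of 16 polyamine genes 1 rose, Odc1, the enzyme that starts polyamine synthesis, from 108, 104, 114 and 178 CPM to 197, 239, 254 and 203 CPM. Of 29 antioxidant genes 2 rose, Gpx4, a peroxidase of membrane lipids, and Mt1. Of 34 genes of fatty acid oxidation and PPAR targets Angptl4 fell and no other was called. Among 35 mitochondrial ribosomal protein genes and 13 genes of mitochondrial DNA 0 were called by edgeR. Without wild type 4 and knockout 4 calls were more numerous over all genes, at 9.78% higher and 14.2% lower. Of 31 glycolysis and glycogen genes 8 were then higher and 3 lower, and of 32 insulin and IGF genes 7 and 7. Of 29 antioxidant genes 6 were higher. In the same setting 5 of 34 fatty acid oxidation genes fell and 6 of 35 mitochondrial ribosomal protein genes rose. Of 16 polyamine genes 2 rose and 1 fell, and 0 of 13 genes of mitochondrial DNA were called. Several of these shares lay near or below those of all genes.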
